A study of Mus musculus with 13 samples.

Results

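Simple keratins and desmosomal genes were followed across the muscles of *mdm* mice: the keratins Krt8, Krt18 and Krt19, the desmosomal plaque genes Dsp, Jup and Pkp2, and the desmosomal cadherins Dsg2 and Dsc2. These 8 genes were chosen by name, with differences between the muscles already known. Of the 17924 genes in the tables, 7 were among them. Dsg2 had no row in the tables used here and was not analysed. The paper kept the same number of genes after removing marginally expressed ones. Whether Dsg2 was removed in that step was not checked. The question was whether they follow mesothelial genes or the genes of the muscle fibres.

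The *mdm* mouse carries a small deletion in titin, the giant spring protein of the sarcomere, and develops an early muscular dystrophy. RNA was sequenced from whole muscles of *mdm* mice from a colony of the B6C3Fe a/a-Ttn mdm/J line: 5 libraries from extensor digitorum longus (EDL), 5 from psoas and 3 from soleus. EDL and psoas are fast muscles and soleus is a slow one. The mice were 29 to 42 days old, the sex was given for 6 of the 13 libraries, and no library had a treatment. A condition code (T1, T3, T4, T5 or T6), which the labels do not explain, was spread unevenly over the muscles, and T1 and T3 were each held by 1 library. Wild-type libraries were not analysed here. The paper's own comparison lists Dsp, Krt8 and Krt18 with higher levels in *mdm* than in wild-type EDL, psoas and soleus. Counts per gene do not show the titin deletion, so the genotype rests on the labels. Genes of mature fibres were abundant in every library, with 24850.4 to 187509 normalized counts of Ckm, the muscle creatine kinase.

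Keratins are the intermediate filament proteins of epithelia. A type II keratin such as Krt8 pairs with a type I keratin such as Krt18 or Krt19, and these pairs form the filaments of simple, single-layered epithelia, among them mesothelium, the lining of body cavities. In desmosomes, desmoplakin (Dsp) ties such filaments to the plaque proteins plakoglobin (Jup) and plakophilin 2 (Pkp2), which hold the cadherins Dsg2 and Dsc2. Heart muscle joins its cells through desmosomes that bind desmin. Skeletal muscle fibres, which are long syncytia, use desmin as their main intermediate filament and have costameres in place of desmosomes, and Krt8, Krt18 and Krt19 are known at low level at costameres. In whole muscle, fewer cells of a type and less RNA per cell cannot be told apart.

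Krt8 and Krt18 lie 23.7 kb apart on chromosome 15 of GRCm38 and point away from each other, Krt8 (ENSMUSG00000049382, 101996698 to 102004482, minus strand) and Krt18 (ENSMUSG00000023043, 102028180 to 102032027, plus strand). Krt19 (ENSMUSG00000020911, 100140810 to 100148665, minus strand) and Jup (ENSMUSG00000001552, 100368958 to 100397763, minus strand) are on chromosome 11. Dsp (ENSMUSG00000054889) is on chromosome 13 at 38151294 to 38198577, plus strand, and Pkp2 (ENSMUSG00000041957) on chromosome 16 at 16213318 to 16272712, plus strand. RefSeq promoter windows of GRCm38.p6 matched 4 of the members. The windows of Krt8, Krt18 and Dsp are shown because the levels of these genes went up and down together among libraries of the same muscle. Each window runs from 250 bases before the RefSeq start to 30 bases after it, 5′ to 3′ on the gene's strand: Krt8 at chr15:102004313-102004592 (minus), Krt18 at chr15:102027966-102028245 (plus) and Dsp at chr13:38151044-38151323 (plus).
Krt8: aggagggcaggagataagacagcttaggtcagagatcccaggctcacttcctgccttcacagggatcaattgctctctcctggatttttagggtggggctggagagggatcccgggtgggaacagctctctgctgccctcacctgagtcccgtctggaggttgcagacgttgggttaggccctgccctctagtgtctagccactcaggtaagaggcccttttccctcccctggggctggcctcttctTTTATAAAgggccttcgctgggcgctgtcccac
Krt18: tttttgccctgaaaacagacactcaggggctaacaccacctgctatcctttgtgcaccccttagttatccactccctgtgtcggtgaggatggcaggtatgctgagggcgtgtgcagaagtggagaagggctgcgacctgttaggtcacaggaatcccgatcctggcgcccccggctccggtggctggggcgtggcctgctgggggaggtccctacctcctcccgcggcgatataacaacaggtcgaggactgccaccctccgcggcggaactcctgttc
Dsp: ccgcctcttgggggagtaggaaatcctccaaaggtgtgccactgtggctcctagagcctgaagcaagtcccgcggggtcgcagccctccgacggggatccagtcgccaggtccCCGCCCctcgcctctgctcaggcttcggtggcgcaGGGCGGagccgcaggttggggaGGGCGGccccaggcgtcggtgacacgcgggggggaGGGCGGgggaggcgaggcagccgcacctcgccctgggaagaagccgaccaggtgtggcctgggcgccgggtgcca
Capitals mark matches on either strand to 4 motifs, the E-box (letters CAGCTG), the GC box (letters GGGCGG), the AP-1 site (letters TGANTCA) and the TATA box, which was searched for as TATAAA. The Krt8 window held a TATA box beside the RefSeq start, read on both strands from overlapping letters, and the Dsp window held 4 GC boxes. None of the 4 motifs was in the Krt18 window. Over 32851 windows of the same length, a TATA box was in 13.1%, an E-box in 14.9%, a GC box in 34.7% and an AP-1 site in 7.46%. These are matches of letters only. The 3 windows shared none of the 4 motifs. The Jup window, not printed, held 2 GC boxes.

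Levels of different genes were compared per kb of exon. By the median over the 13 libraries, Krt18 stood highest with 1136 normalized counts per kb (677 to 3629), followed by Dsp with 831 (398 to 3452) and Krt8 with 380.4 (96.4 to 1041), and these ranges overlapped. Jup followed with 109.9 (65.5 to 159). Pkp2 had 24.4 (8.81 to 70.9) and Krt19 14.6 (1.07 to 119), again with overlapping ranges, and Dsc2 was lowest with 0.708 (0 to 1.65). Krt18 was the more abundant of the type I keratins in every library. Per kb, Krt19 made up 0.0948% to 1.04% of the Krt18 and Krt19 total in EDL, 0.434% to 9.55% in psoas and 0.224% to 3.33% in soleus. Krt18 exceeded Krt8 per kb in all 13 libraries, by 2.06 to 10.2 times.

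**Figure D1:**
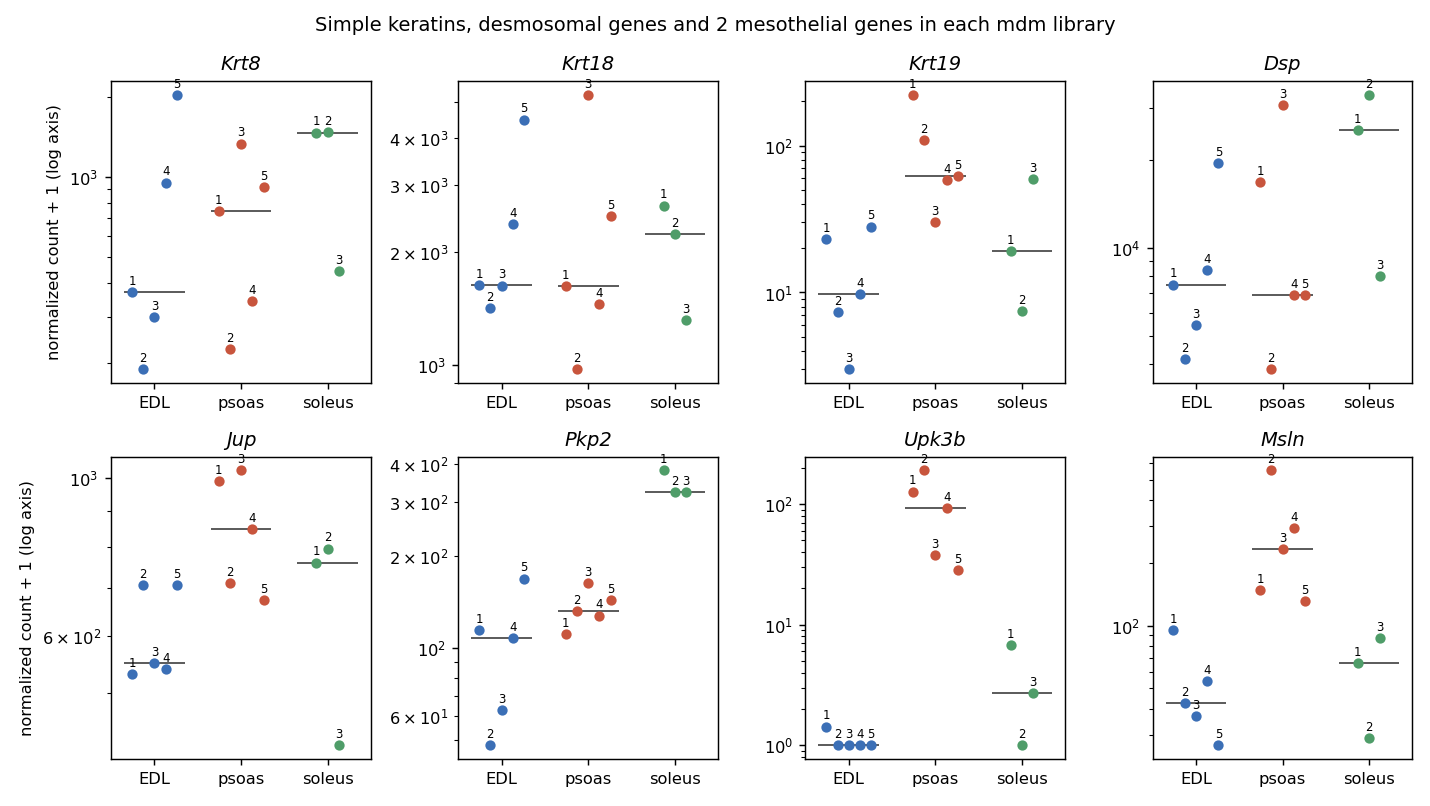
Normalized counts plus 1 (log axis) of 6 members and of the mesothelial genes Upk3b and Msln in each *mdm* library, by muscle. Points carry the replicate number and lines mark the muscle's median. Krt8, Krt18 and Dsp were high in EDL 5, where Upk3b was at 0 and Msln had 25.7 normalized counts. Krt19 was higher in every psoas library than in every EDL library.

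Krt8 was present in each library. In EDL 1 to 5 it had 369.6, 189, 297, 953 and 2038 normalized counts, in psoas 1 to 5 it had 745, 225, 1337, 342 and 914, and in soleus 1 to 3 it had 1469, 1472 and 444. The muscles overlapped fully, and the highest library was an EDL library. The mean was 769 ± 769 in EDL, 713 ± 449 in psoas (SD, n = 5 each) and 1128 ± 593 in soleus (SD, n = 3). The log2 fold change in the edgeR fit over the 13 libraries was −0.10 ± 0.62 (standard error) for psoas against EDL, 0.57 ± 0.71 for soleus against EDL and 0.67 ± 0.70 for soleus against psoas, each smaller than its error.

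Krt18 had 1633, 1417, 1625, 2368 and 4479.5 normalized counts in EDL 1 to 5. Psoas 1 to 5 had 1621, 974, 5214, 1454 and 2487, and soleus 1 to 3 had 2650.5, 2221 and 1315. EDL 5 and psoas 3 stood highest and psoas 2 lowest, and no muscle was set apart. Its log2 fold change was 0.03 ± 0.43 for psoas against EDL, −0.15 ± 0.50 for soleus against EDL and −0.18 ± 0.50 for soleus against psoas. The signs for Krt8 and Krt18 between psoas and EDL turned in fits that left out a library or blocked on the replicate number.

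Krt19, the smallest keratin, which pairs with Krt8 and other type II keratins, had another pattern. EDL 1 to 5 had 22.1, 6.38, 1.99, 8.71 and 27.1 normalized counts, psoas 1 to 5 had 221, 108, 29.3, 57.3 and 61.3, and soleus 1 to 3 had 18.2, 6.43 and 58.5. Every psoas library lay above every EDL library, though psoas 3 only just, and soleus overlapped both. The mean was 13.3 ± 10.8 in EDL, 95.4 ± 75.6 in psoas and 27.7 ± 27.3 in soleus (SD, n = 5, 5 and 3). The lowest library, EDL 3, rested on 1 read. Krt19 had a log2 fold change of 2.81 ± 0.69 for psoas against EDL, 0.93 ± 0.79 for soleus against EDL and −1.88 ± 0.81 for soleus against psoas. The first was not past the limits of the study (adjusted p under 0.01 and a fold change over 2) in edgeR. With the replicate number as a block it was 2.92 ± 0.43 and past the limits, as it was with DESeq2's Wald test. EDL 1 and psoas 1 differ in age and label code, and with the block over pairs 2 to 5 alone the value was 2.73 ± 0.51 and not past the limits. Among libraries of the same label code, psoas exceeded EDL by 3.78 (T4), 3.16 (T5) and 1.84 (T6) in log2 CPM. Without soleus 3 the value for soleus against EDL fell to −0.10.

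Dsp, the linker between filament and plaque, had the highest counts of all members. EDL 1 to 5 had 7495, 4162, 5455, 8388 and 19498 normalized counts, psoas 1 to 5 had 16781, 3842, 30753, 6914 and 6884, and soleus 1 to 3 had 25322, 33344 and 8026. High and low libraries occurred in each muscle. The log2 fold change of Dsp was 0.54 ± 0.57 for psoas against EDL, 1.32 ± 0.64 for soleus against EDL and 0.78 ± 0.65 for soleus against psoas. Without psoas 3 the first of these was −0.05, and with the label code as a factor −0.11. Within the label codes it ran from −0.88 (T6) to 2.49 (T5). A gene model on the opposite strand, Gm10129, overlaps Dsp and had at most 25.7 normalized counts, and whether the authors' counting used strand is not given in the sources used here.

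Jup, which is a member of both desmosomes and adherens junctions, varied over the narrowest range in fold. It had 530.1, 707, 549, 539 and 707 normalized counts in EDL 1 to 5, 988, 711, 1023, 848 and 673 in psoas 1 to 5, and 759.8, 795 and 421 in soleus 1 to 3. All of psoas but replicate 5 lay above EDL, and soleus spanned the EDL range and beyond. The log2 fold change of Jup was 0.48 ± 0.20 for psoas against EDL, 0.13 ± 0.24 for soleus against EDL and −0.36 ± 0.24 for soleus against psoas.

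Pkp2, the plakophilin of heart and simple epithelia, was highest in the slow muscle. EDL 1 to 5 had 114, 47.2, 61.7, 107 and 168 normalized counts, psoas 1 to 5 had 109.9, 131, 162, 127 and 143, and soleus 1 to 3 had 379.9, 324 and 323. Each soleus library held more than any EDL or psoas library, and EDL and psoas overlapped. Pkp2 had a log2 fold change of 1.79 ± 0.31 for soleus against EDL, past the limits, of 1.36 ± 0.31 for soleus against psoas and of 0.44 ± 0.28 for psoas against EDL. The call against EDL was lost without any 1 of the 3 soleus libraries (log2 fold change 1.72 to 1.84) and without EDL 1, 3 or 4. It was also lost with the label code as a factor (2.05 ± 0.36) and when psoas was left out of the fit (1.79 ± 0.35), while the fold changed little. Against psoas it passed the limits in DESeq2 only. Within the label codes, soleus exceeded EDL by 2.84 (T4) and 1.28 (T6), and psoas by 1.43 (T4) and 1.26 (T6), in log2 CPM.

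Dsc2, a desmosomal cadherin, had 0 to 8.71 normalized counts in the 13 libraries, from 0 to 20 reads. It was below the filter on low counts (10 normalized counts in at least 3 libraries) and was not tested. Of the 8 members, 6 passed that filter. Its median was 5.10 in EDL, 2.49 in psoas and 3.44 in soleus, a range in which a few reads decide the order.

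In the comparison of psoas and EDL, 0 of the 6 tested members passed the limits in edgeR, where 4.93% of all 17069 genes tested did (2 members and 5679 genes had an unadjusted p under 0.05). With DESeq2's Wald test and with the replicate block it was 1 of 6, where 9.29% and 7.54% of all genes passed. In soleus against EDL 1 of 6 passed, with 0.978% of all genes (3.71% in DESeq2, with the same member), and in soleus against psoas 0 of 6, with 0.0762%. At an unadjusted p under 0.05 stood 2 members and 2163 genes in the last comparison, and DESeq2 called 1 of 6 members and 1% of all genes. Libraries that did not overlap, with the first muscle higher, were seen for 1 member in each comparison: Krt19 in psoas against EDL, where 6.48% of all genes were higher in that way, and Pkp2 in soleus against EDL (5.33%) and in soleus against psoas (4.97%). Since the genes were chosen with these comparisons known, the counts describe them and nothing was read from their shares. The median log2 fold change of the 6 members was 0.46 for psoas against EDL, 0.75 for soleus against EDL and 0.25 for soleus against psoas, and that of all genes was 0.02, −0.03 and −0.03.

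Genes of a mesothelial list, which held no keratins or desmosomal genes, were higher in psoas than in EDL. Of its 11 genes 10 were in the tables, with a median log2 fold change of 3.73. Past the limits 9 of the 10 were higher in psoas, where 2.43% of all genes were. Upk3b, Upk1b, Wt1 and Bnc1 passed the filter on low counts through psoas libraries only, so they could only come out higher there. The list was chosen with earlier results of these data known, so the count describes it and nothing was read from its share. Upk3b, a uroplakin and a marker of mesothelium, had 1 read in EDL 1 and none in the other EDL libraries, against 126, 189, 36.6, 91.2 and 27.4 normalized counts in psoas 1 to 5 and 5.79, 0 and 1.72 in soleus. Wt1, a transcription factor of mesothelium, had at most 0.638 in EDL, 7.33 to 118 in psoas and 0 to 3.72 in soleus. Bnc1 had no read in any EDL library and a mean of 41.6 normalized counts in psoas, at least 12.6-fold higher against a floor of 3 counts per library. With Bnc1 at that bound the list's median was 3.41. Msln (mesothelin) was present in all muscles, with 25.7 to 94.5 in EDL, 130.1 to 554 in psoas and 27.9 to 86.0 in soleus. Against EDL, soleus had 1 of 10 of these genes past the limits, Lrrn4 (log2 fold change 2.76 ± 0.52), where 0.978% of all genes passed.

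Set beside this list, the members divided. In the 5 EDL libraries there were 189 to 2038 normalized counts of Krt8, 1417 to 4479.5 of Krt18 and 4162 to 19498 of Dsp. Of the mesothelial list, Upk3b, Wt1 and Bnc1 were at or near 0 there. Other genes of that list were read in every EDL library, among them Msln (25.7 to 94.5), Cldn15 (29.9 to 83.6) and Gpm6a (16.6 to 48.5). The summed mesothelial list had 97.6 to 245 normalized counts in EDL, 567 to 1796 in psoas and 225 to 352 in soleus. The members together had 6533 to 26922, 5994 to 38521 and 10591 to 38165. These sums are not corrected for gene length, and Dsp made up most of the members' sum in every library. Krt19 was higher in psoas along with the mesothelial genes.

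**Figure D2:**
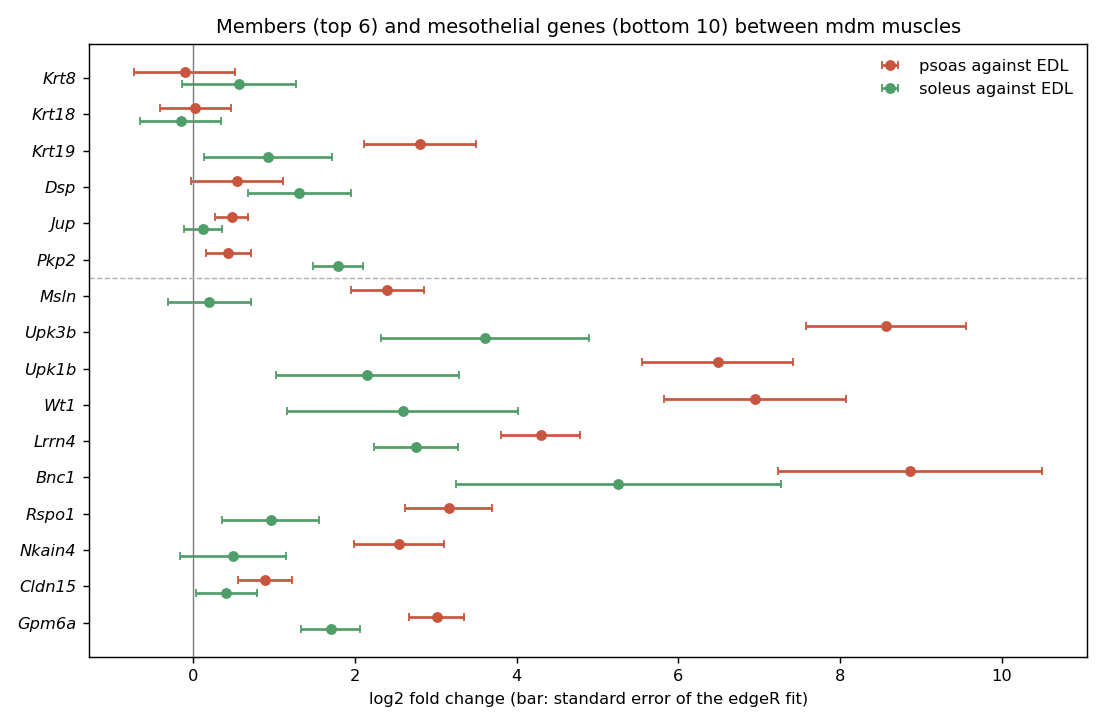
Log2 fold change of psoas (red) and soleus (green) against EDL for 6 members and 10 mesothelial genes in the edgeR fit, with standard errors as bars. Of the members, only Krt19 reached the range of the mesothelial genes in psoas (2.81), and Pkp2 was the member furthest from 0 in soleus (1.79). Bnc1 had no read in EDL, so its fitted values depend on the prior count.

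Variation among libraries of the same muscle, which the choice of genes did not use, was tested with a slope on the mesothelial index, the mean log2 CPM of the list, in a model with the muscle as a factor. The index was −1.73 to −1.003 in EDL, 0.92 to 3.06 in psoas and −1.10 to 0.29 in soleus. Of its 10 genes, 1 to 4 had no read in an EDL library and 4 had none in soleus 2. The index there thus depends in part on the prior count. Krt19 had a slope of 0.98 ± 0.43 log2 per unit of the index (standard error), and the adjusted p was 0.56 (edgeR's quasi-likelihood test, unadjusted p = 0.039). In psoas alone the slope of Krt19 was 0.92 ± 0.33, and over all alternatives it ran from 0.51 to 1.43. Krt18 and Krt8 had slopes of −0.58 ± 0.32 and −0.58 ± 0.46, Dsp of −0.41 ± 0.45, Jup of −0.02 ± 0.16 and Pkp2 of −0.06 ± 0.21, with adjusted p from 0.586 to 0.981 in edgeR. None of the 6 members was called at an adjusted p under 0.05, and neither was any gene (0%), while an unadjusted p under 0.05 was seen for 8.78% of them. With the replicate block over EDL and psoas the slope of Krt19 was 1.41 ± 0.42, whereas those of Krt8, Krt18 and Dsp turned to 0.80 ± 0.70, 0.06 ± 0.55 and 0.65 ± 0.79. The direction of the last 3 is thus not settled by these libraries. That block took EDL 1 and psoas 1 as a pair, although they differ in age and label code and were not from 1 mouse. The slopes were not refitted without this pair. The block also fits a level for each pair beside the muscle and the index, which leaves little to judge the error. The contrast between Krt19 and the other members in that fit was therefore not read as a result. The same limits hold for the slopes with this block on the fibre indices below.

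**Figure D3:**
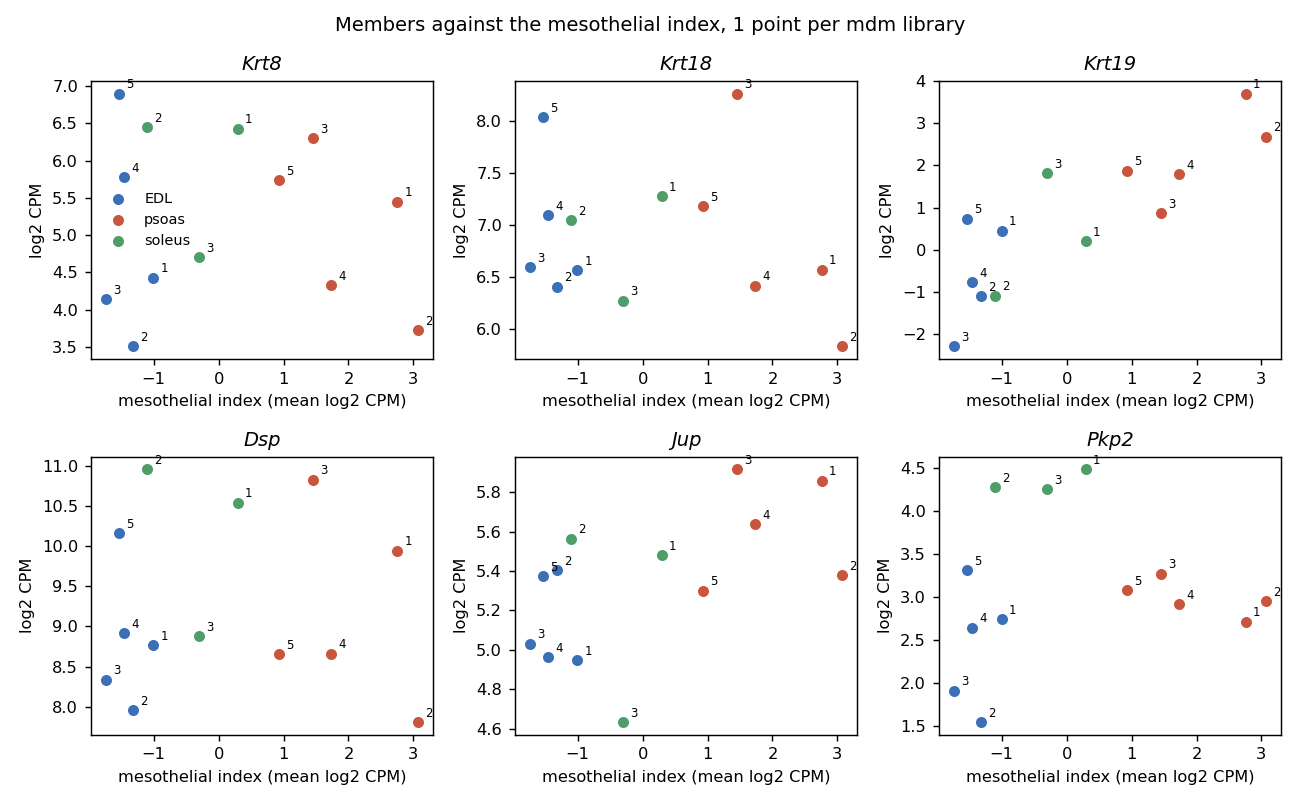
Log2 CPM of 6 members against the mesothelial index (mean log2 CPM of 10 genes), 1 point per *mdm* library, coloured by muscle and numbered by replicate. Krt19 had a slope of 0.98 ± 0.43 within muscles, which was not called, and single libraries stood out of that order. EDL 5, with an index of −1.53, had the most Krt8 in normalized counts.

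The fibre genes were examined in the same way. Of 12 genes of mature fibres, 5 were lower in psoas than in EDL past the limits, where 2.5% of all genes were (Pygm, Eno3, Tcap, Ckm and Casq1), with a log2 fold change of −1.67 ± 0.30 for Ckm and −0.99 ± 0.33 for Acta1, the latter not past them. Of 10 genes of regenerating fibres 3 were higher (Mymk, Chrng and Myl4), where 2.43% of all genes were. Myh3, the embryonic myosin, was at 1.22 ± 0.44 and did not pass. On the mature fibre index, Krt19 had a slope of −2.28 ± 0.52 (adjusted p = 0.0824, edgeR, unadjusted p = 0.00074). It was −1.61 ± 0.62 with the label code as a factor, −1.47 ± 0.67 with all 3 indices in the model and −1.02 ± 0.59 with the replicate block over EDL and psoas. That of the other 5 members ran from −0.45 ± 0.30 (Pkp2) to 0.40 ± 0.53 (Krt18), with adjusted p of 0.442 to 0.917. The sign was not stable for Krt18 or for Dsp (0.17 ± 0.70): both were below 0 under each of those 3 alternatives, Krt18 at −0.52 to −0.20 and Dsp at −0.80 to −0.33. Nor was it stable for Krt8 (−0.32 ± 0.86), which ran from −0.99 to 0.41 when 1 library was left out. No member was called, with 0.182% of all genes called and 17.2% at an unadjusted p under 0.05. On the regenerating fibre index, slopes were positive for 5 members, 1.45 ± 0.79 for Dsp, 1.09 ± 0.93 for Krt8, 0.96 ± 0.59 for Krt18, 0.61 ± 0.26 for Jup and 0.30 ± 0.39 for Pkp2, and −1.50 ± 0.82 for Krt19. Their adjusted p was 0.5 to 0.842 in edgeR, and no gene was called on this index (0%), with 9.68% at an unadjusted p under 0.05. With the replicate block over EDL and psoas the slope of Krt19 turned to 2.10 ± 1.13, and with the label code it was −0.34 ± 1.31. The other slopes varied in size. Leaving out 1 library at a time gave 0.44 (without EDL 5) to 1.57 (without psoas 2) for Krt8, 0.43 (without psoas 3) to 1.26 (without psoas 2) for Krt18 and 0.87 (without psoas 3) to 1.94 (without psoas 1) for Dsp. For Jup it gave 0.31 (without soleus 3) to 0.81 (without psoas 1), and for Pkp2 0.11 (without EDL 5) to 0.56 (without soleus 3). With the label code the slopes of Krt8, Dsp, Krt18 and Pkp2 were 3.86, 3.82, 2.33 and 1.42, and no member was called under any alternative. Jup was the only member with an unadjusted p under 0.05 there (0.035). On none of the 3 indices did the slope of a member reach an adjusted p under 0.05 over all genes tested. Krt19 on the mature fibre index came closest (adjusted p = 0.0824, edgeR).

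**Figure D4:**
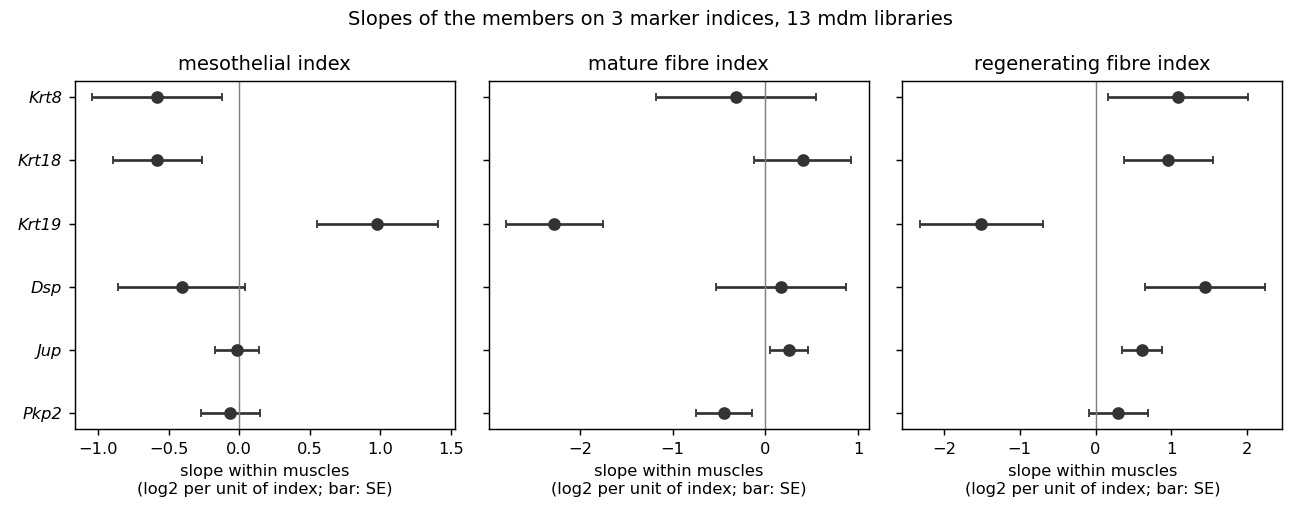
Slopes of 6 members on the mesothelial, mature fibre and regenerating fibre indices (log2 per unit of the index) with standard errors, from edgeR models with the muscle as a factor over 13 *mdm* libraries. Krt19 had the slope farthest from 0 on the mature fibre index, −2.28 ± 0.52. No slope was called, and several changed sign with the replicate block.

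The members were also compared with each other after subtracting each muscle's mean log2 CPM. The points are the same 13 libraries and share their depth and muscle composition, so the correlations are descriptions. Pearson's r was 0.90 between Krt8 and Krt18, 0.87 between Krt8 and Dsp and 0.85 between Krt18 and Dsp. Krt19 had r of −0.02 with Krt8, −0.22 with Krt18 and −0.11 with Dsp. Pkp2 had 0.72 with Krt8 and Jup had 0.72 with Dsp. Of the type I keratins, it was the level of Krt18 that went with that of Krt8 by this measure. On the same scale Krt19 had r of 0.57 with the mesothelial index, 0.65 with Wt1 and 0.71 with Cdh1 (E-cadherin), and −0.80 with the mature fibre index. For Krt18 these were −0.48, −0.62, 0.07 and 0.18.

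**Figure D5:**
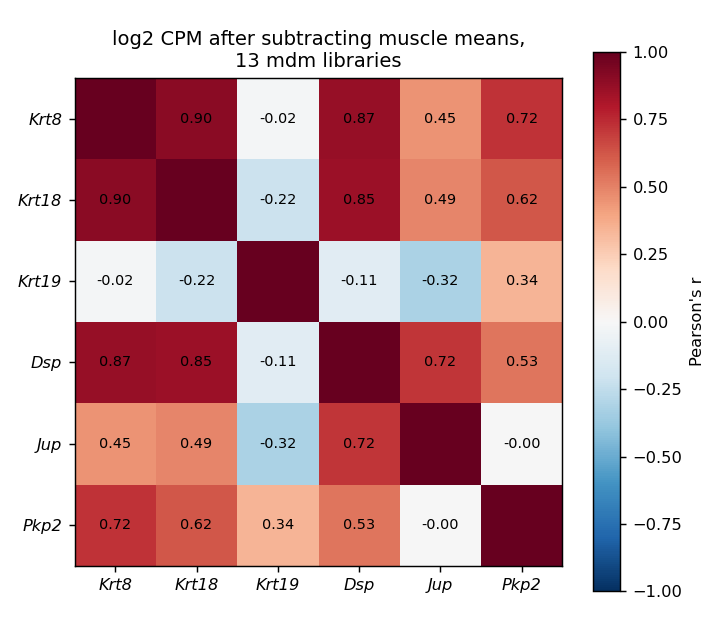
Pearson's r between log2 CPM of 6 members over 13 *mdm* libraries after each muscle's mean was subtracted. Krt8, Krt18 and Dsp formed a block at 0.85 to 0.90, and Krt19 was between −0.32 and 0.34 with every other member.

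Over the 13 libraries, muscles included, the genes most like Pkp2 were Tnni1 (slow skeletal troponin I, r = 0.97), Ndrg4 (0.95) and Atp2a2 (the calcium pump of slow and cardiac muscle, 0.94). Krt19 was most like Pmp2 (a myelin protein of peripheral nerve, 0.94), Sh3tc2 (0.94) and Ctnnal1 (0.92). Krt8 was most like Camk2d (0.88), Pafah1b2 (0.85) and Fst (follistatin, a myostatin and activin antagonist, 0.84), and Dsp most like Ppfibp1 (0.91), Fst (0.88) and Myom3 (an M-band protein of the sarcomere, 0.86). Krt18 had Manbal (0.93), Zkscan6 (0.84) and Tbc1d31 (0.83), and Jup had Dync1h1, Myo10 and Mtr (0.92, 0.91 and 0.91). After the muscle means were subtracted, the leading genes were Rrp8, Fst and Snx24 for Krt8 (0.89, 0.88 and 0.88), Arl2bp, Iffo2 and Manbal for Krt18 (0.94 each), and Kcnh1, Ppfibp1 and Gm13583 for Dsp (0.97, 0.94 and 0.93). For Krt19 they were Pced1b, Pmp2 and Cfap74 (0.92, 0.89 and 0.88), for Jup Camsap1, Dvl3 and Ubtf (0.96, 0.93 and 0.92), and for Pkp2 Commd10, Slc30a5 and Ripor3 (0.95, 0.93 and 0.92). Tnni1 and Atp2a2 left the list of Pkp2 in that step. These are the highest of 17069 values each from 13 libraries.

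Other keratins in the tables were Krt7, Krt10, Krt14, Krt79, Krt80 and Krt222. Between psoas and EDL 1 of these 6 passed the limits, where 4.93% of all genes did. It was Krt222, which was lower in psoas (log2 fold change −2.16 ± 0.38). Krt7, a simple type II keratin, had 20.4 to 47.8 normalized counts in EDL, 60.8 to 175 in psoas and 24.1 to 41.0 in soleus. Each psoas library was above every EDL and soleus library, at a log2 fold change of 1.52 ± 0.36 against EDL, not past the limits. Krt14, a keratin of basal stratified epithelium, had at most 27.2 normalized counts in any library. Of the epithelial genes, 4 of 8 were in the tables and 1 passed, Cdh1, with 0 to 10.2 normalized counts in EDL, 13.03 to 204 in psoas and 8.60 to 20.7 in soleus (log2 fold change 3.80 ± 0.79 for psoas against EDL). Trp63 had 233 to 1111 in the 13 libraries. Epcam, Krt5, Cldn4 and Esrp1 had no row in the tables and were not analysed here.

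Of 13 other desmosomal genes 7 were in the tables and 6 were tested. None passed the limits in any of the 3 comparisons in edgeR or DESeq2, and 2, 1 and 1 had an unadjusted p under 0.05 in edgeR for psoas against EDL, soleus against EDL and soleus against psoas. Pkp3, a plakophilin of epithelia, had 74.5, 44.0, 29.9, 219 and 373 normalized counts in EDL, 113, 77.4, 347, 146 and 104 in psoas and 74.9, 100.0 and 46.4 in soleus. It was high in EDL 5 and psoas 3, as were Krt8 and Krt18, with r of 0.85 and 0.79 to them after the muscle means were subtracted. Pkp1 was higher in every psoas library than in every EDL library (7.45 to 20.0 against 0 to 5.74), and Evpl, at 1.72 to 36.8 where it was read, and Ppl, Perp and Pkp4 overlapped between the muscles. Dsg3 was at 0 in 9 of the 13 libraries. Des, the main intermediate filament of the fibre, had 8738 to 24235 normalized counts. Of 9 genes of the muscle intermediate filament system only Dag1 passed between psoas and EDL (1.13 ± 0.23), and of 12 adherens junction genes Cdh1 and Ctnna2 (2.98 ± 0.61). Of all genes tested, 4.93% passed in that comparison.

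Genes of other cells moved with the muscles too. Of 6 lymphatic endothelial genes 4 were higher in psoas than in EDL past the limits (Mmrn1, Reln, Prox1 and Flt4), where 2.43% of all genes were. In soleus against EDL 4 were higher as well, where 91 of 17069 genes were. The summed list had 379 to 1039 normalized counts in EDL, 1258 to 2466 in psoas and 1592 to 3041 in soleus. Of 6 endothelial genes 0 passed between psoas and EDL in edgeR or DESeq2, with 1 at an unadjusted p under 0.05 in edgeR. The part of these cells in the levels of the members was not tested.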

How the data were processed

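The authors sequenced 13 *mdm* muscles as 75 bp paired-end TruSeq Stranded Total RNA libraries. The authors trimmed low-quality libraries (Trimmomatic 0.32), aligned reads with TopHat2 2.1.1 to GRCm38.p4 and counted them per gene with Bioconductor tools; the overlap mode and use of strand are not given in the sources used here. Counts were deposited raw and as a signal of counts divided by DESeq2 size factors, which the raw counts reproduced. The deposited tables hold 17924 genes, the number that the paper kept after removing marginally expressed genes. The signal was used for levels and the raw counts for tests. Libraries held 9114176 to 48835209 counts in all. Counting alone leaves an error of 10% on 100 counts, and no other error is in that figure.

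Genes with 10 normalized counts in at least 3 libraries (17069) were fitted with edgeR 4.0.16 (TMM, quasi-likelihood test, muscle as factor, all 13 libraries, R 4.3.3), with Benjamini-Hochberg adjustment over all of them. Called genes had a log2 fold change beyond 1 in either direction and an adjusted p under 0.01. Slopes used the mean log2 CPM (prior count 2) of a marker list beside the muscle and were called at an adjusted p under 0.05. DESeq2 1.42.0, other scalings, filters, label codes, the replicate block and the omission of each library were alternatives. The members and lists were chosen with earlier results of these data known. Named genes were the members, up to 4 called genes per list with the largest fold change, the 3 most like each member, Msln, Upk3b, Wt1, Ckm, Acta1 and Myh3, and other keratins; Bnc1, Trp63, Des and genes of the desmosomal list that were not called were added after their values were seen. Symbols were matched for 17833 genes, and exon lengths came from GENCODE M21.

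Whether same-numbered libraries deviate together was checked. For EDL and psoas all 5 pairs correlated at 0.289 to 0.407 and were blocked together by this measure alone. Soleus was not taken as paired (−0.302 to 0.421). The measure does not identify mice. The value of 0.407 was that of EDL 1 with psoas 1, and soleus 3 with EDL 4, of different number, had 0.442. No 2 libraries of a muscle agreed within sampling noise. The labels name no mouse. EDL 1 (38 days, T1) and psoas 1 (29 days, T3) differ in age and label code and were thus not from 1 mouse. Soleus 1, 2 and 3 (33, 36 and 38 days) also differ in age from their numbered partners. EDL and psoas 2 to 5 share both age and label code. P-values measure the spread between these libraries. The fits were tested on simulated data with large effects in 200 genes above the median level, without pairing, and recovered 98.5% to 100% of them. This does not show how often smaller effects, or effects in genes with few reads, would be found.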

Additional observations from a re-analysis of the deposited data

Results flagged for a closer look

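Of 40 sets of libraries (a gene in EDL or in psoas), 5 had a library that stood apart from the others by Dixon's test on normalized counts. Its rate of about 1 in 20 by chance holds for independent sets of normally spread values. Counts of correlated genes over the same libraries do not meet that, so nothing was read from the share. Dsp had 19498 normalized counts in EDL 5 and 4162 to 8388 in the other EDL libraries. Trp63 had 1111 in psoas 3 and 552 to 649 in the others, and Pkp3 had 347 there and 77.4 to 146 in the others. Krt7 had 175 in psoas 1 and 60.8 to 85.2 in the other psoas libraries. Upk3b had 0.426 in EDL 1, which is 1 read, and 0 in the other EDL libraries, a set that this rule always flags.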

How the results depend on the processing

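Of 348 recomputed differences of single members between muscles 314 kept their direction and side of the limits, and of 348 slopes 320 did; no slope was called under any alternative. The cause of the changes was not tested. Members called for psoas against EDL became 1 with DESeq2 and with the replicate block (Krt19 both times), and 0 with the block over pairs 2 to 5 alone, added after seeing the data, and for soleus against psoas 1 with DESeq2 (Pkp2). For soleus against EDL they became 0 in a fit of 2 muscles and with the label code, and were 0 to 1 over the fits without 1 library (0 without EDL replicate 1, 3 or 4 or any soleus replicate). With the replicate block the log2 fold change for psoas against EDL was 0.15 for Krt8 and −0.11 for Krt18 (−0.15 for Krt18 over pairs 2 to 5). For soleus against EDL, where same-numbered libraries were not pairs, the block gave 0.34 for Krt18. With the label code as a factor, which takes up EDL 1 and psoas 1, it was −0.18 for Krt18 and −0.11 for Dsp (psoas against EDL), 0.17 for Krt18 and −0.032 for Jup (soleus against EDL) and 0.35 for Krt18 (soleus against psoas). The replicate block over EDL and psoas, added after seeing the data, gave slopes on the mesothelial index of 0.80 (Krt8), 0.058 (Krt18), 0.65 (Dsp), 0.050 (Jup) and 0.63 (Pkp2), on the mature fibre index of −0.30 (Krt18) and −0.45 (Dsp), and on the regenerating fibre index of 2.10 (Krt19). With all 3 indices together Jup had 0.040 on the mesothelial index, and Krt18 and Dsp had −0.52 and −0.80 on the mature fibre index. In psoas alone Jup had 0.059. With the label code Pkp2 had 0.13 on the mesothelial index, and Krt18 and Dsp had −0.20 and −0.33 on the mature fibre index.

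Without 1 library at a time, psoas against EDL ran from −0.45 to 0.67 for Krt8, −0.49 to 0.42 for Krt18 and −0.047 to 1.04 for Dsp. Soleus against EDL ran from −0.37 to 0.24 for Krt18, −0.10 to 1.43 for Krt19 and −0.027 to 0.37 for Jup, and soleus against psoas from −0.40 to 0.34 for Krt18. Slopes on the mesothelial index ran from −0.73 to 0.0058 for Dsp, −0.14 to 0.10 for Jup and −0.11 to 0.010 for Pkp2, and on the mature fibre index from −0.99 to 0.41 for Krt8, −0.16 to 0.88 for Krt18 and −0.64 to 0.66 for Dsp.

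Over all genes, calls for the 3 comparisons (psoas against EDL, soleus against EDL, soleus against psoas) numbered 841, 167 and 13 in edgeR and 1586, 633 and 171 in DESeq2. The replicate block gave 1270 for psoas against EDL (610 over pairs 2 to 5). For the comparisons with soleus, whose same-numbered libraries were not pairs, it gave 148 and 0, which are not results of a paired fit. The label code gave 1106, 86 and 6, and the 2 muscles alone 564, 123 and 8. Without 1 library the calls ran from 318 to 803, 19 to 184 and 3 to 21. Genes called on the mature fibre index, 31, became 0 with the label code, with all 3 indices and with the block, and 0 to 17 without 1 library. Depth limits Dsc2, with at most 20 reads, and Krt19 in EDL 3, with 1 read.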
